A study of Mus musculus with 6 samples.

Results

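The 10 genes described here, Acta1, Ankrd1, Xirp1, Xirp2, Fhl1, Fhl2, Csrp3, Flnc, Des and Vcl, are load-induced and costamere genes of the hypertrophied cardiomyocyte. They were chosen by gene name from the 54532 genes of the deposited count table, and all 10 passed the low-count filter that left 14774 genes for testing. Poly-A RNA of the left ventricle was sequenced, each heart giving its own library, from male mice that had aortic banding (AB) at 8 to 10 weeks of age and were examined 4 weeks later. The 3 TG hearts carry the label HINT2CTG-Myh6Cre, a human HINT2 transgene behind a CAG promoter that tamoxifen-activated Cre, driven by the cardiomyocyte promoter Myh6, switches on, and these mice received 5 mg/kg tamoxifen daily for 7 days. The 3 NTG hearts are labelled C57BL/6J, and whether they carried Cre or received tamoxifen is not stated in the sources used here. All 6 hearts were banded and sham-operated hearts were not analysed here, so the values compare TG with NTG hearts under load and not load with its absence.

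In the cardiomyocyte, force from the sarcomere reaches the membrane and the neighbouring cell through the Z-disc, the costamere and the intercalated disc, and the proteins at these sites both carry the load and sense it. Pressure overload is known to induce skeletal alpha-actin, ankyrin repeat and LIM proteins as part of the fetal and stretch-responsive gene programme. Desmin, filamin C and vinculin tie the myofibril to the membrane and are known to accumulate when the ventricle is overloaded. Transcription factors that respond to actin and tension, among them SRF, the TEAD factors and MEF2, act on many of these genes.

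One library, NTG 1, stood apart from the other NTG libraries and is named beside the results. The targeted gene Hint2 had 12 counts in the library labelled NTG 1, against 545 and 559 in NTG 2 and NTG 3. The TG libraries had 793 to 859, so that NTG 1 stood furthest from them in this gene. This row is the mouse gene, and whether it counts reads of the human transgene was not tested. Over all genes, a chi-square statistic per gene set NTG 1 nearer to TG 2 (17.8), TG 1 (21.5) and TG 3 (28.1) than to NTG 3 (33.1) or NTG 2 (71.2). By the same statistic, TG 2 was nearer to NTG 1 (17.8) and NTG 3 (28.5) than to TG 1 (32) or TG 3 (36.8). On the first principal component, with 52.3% of the variance, NTG 1 stood at -5.08, between NTG 3 at 29.3 and TG 2 at -10.7. NTG 1 was kept as labelled, and the fold changes of the 10 genes are also given without it. Library totals ran from 14863568 to 17581220 counts among NTG and from 14944465 to 17235802 among TG hearts, so that depth was similar. The 10 genes took 1.83% to 2.44% of these counts in NTG and 1.33% to 2.16% in TG. Levels are given as CPM, counts relative to library size with TMM scaling factors. The ventricular label was checked with markers. P-values of the fits weigh the difference between TG and NTG by the spread between hearts within a group. The 8 ventricular cardiomyocyte markers, Myh6, Myl2, Myl3, Tnni3, Tnnt2, Actc1, Ryr2 and Pln, summed to 21126 to 35776 CPM in NTG and 34471 to 42698 CPM in TG. Atrial markers summed to 67.5 CPM in NTG 1, 29.2 CPM in TG 2 and 167 CPM in TG 3, and to under 5 CPM in the other libraries. Skeletal muscle markers summed to 2.16 to 3.03 CPM in all 6 libraries, so that Acta1, which skeletal muscle also makes, was measured in hearts where the defining skeletal genes were near 0.

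Per kilobase of gene length, Acta1 had the highest level of the group, with a mean of 3734 ± 769 CPM per kb (SD, n = 3) in NTG and 3401 ± 1090 in TG. Ankrd1 came next at 2659 ± 378 CPM per kb in NTG and 1858 ± 603 in TG, and its range over the 6 libraries overlapped that of Acta1. Des, Fhl2 and Csrp3 followed, with means over the 6 libraries of 783, 554 and 475 CPM per kb. Each range overlapped the next within these genes, while Des and Csrp3 did not overlap. Xirp2, Xirp1, Flnc and Fhl1 lay between 101 and 167 CPM per kb, again with each range overlapping the next. Vcl was the lowest, at 17.4 ± 2.13 CPM per kb in NTG and 15.6 ± 1.4 in TG, and did not overlap any other gene of the group.

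The promoters of these genes are shown because the text returns to genes that share a motif and whose fold changes had opposite signs. RefSeq promoters on GRCm38.p6, from 250 bases before to 50 bases after each start, matched 9 of the 10 genes with 13 promoters. Both strands were searched for the CArG box bound by SRF, the MCAT element bound by TEAD factors (letters CATTCC) and the MEF2 site. A CArG box was found in Acta1, Fhl1, Fhl2 and Vcl, against 1.63% of all 32851 promoters of the same length. An MCAT element was found in Acta1, Ankrd1, Flnc and Vcl, against 14.7% of all promoters, and a MEF2 site in Xirp2 and Fhl2, against 3.19%. No match overlapped that of another motif, and the MCAT element of Flnc is 1 site held by both of its overlapping windows. These letters were not found in the windows of Csrp3 and Des. The sequences run 5′ to 3′ on the strand of the gene, and capitals mark the CArG box and the MCAT element in Acta1, both MCAT elements in Ankrd1 (there as the reverse complement, GGAATG), the MEF2 site in Xirp2, the CArG box in Fhl1 and the CArG box followed by the MEF2 site in Fhl2.
Acta1, chr8:123894726-123895025, minus strand: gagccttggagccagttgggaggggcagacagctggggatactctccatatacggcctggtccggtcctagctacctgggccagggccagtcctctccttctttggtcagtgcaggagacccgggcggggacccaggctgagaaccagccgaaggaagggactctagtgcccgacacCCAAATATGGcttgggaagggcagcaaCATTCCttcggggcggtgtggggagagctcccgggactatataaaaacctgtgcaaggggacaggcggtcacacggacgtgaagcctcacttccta
Ankrd1, chr19:36119795-36120094, minus strand: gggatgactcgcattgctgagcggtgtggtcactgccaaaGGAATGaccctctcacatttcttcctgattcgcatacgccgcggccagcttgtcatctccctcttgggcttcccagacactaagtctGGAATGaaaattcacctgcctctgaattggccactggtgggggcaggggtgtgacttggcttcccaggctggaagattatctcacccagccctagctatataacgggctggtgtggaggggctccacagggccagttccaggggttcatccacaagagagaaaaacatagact
Xirp2, chr2:67445752-67446051, plus strand: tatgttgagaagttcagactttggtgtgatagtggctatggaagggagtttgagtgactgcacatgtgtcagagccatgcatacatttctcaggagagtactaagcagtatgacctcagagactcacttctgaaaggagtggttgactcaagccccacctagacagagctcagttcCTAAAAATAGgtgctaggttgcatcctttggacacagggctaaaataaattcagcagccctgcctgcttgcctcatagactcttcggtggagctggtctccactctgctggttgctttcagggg
Fhl1, chrX:56779433-56779732, plus strand: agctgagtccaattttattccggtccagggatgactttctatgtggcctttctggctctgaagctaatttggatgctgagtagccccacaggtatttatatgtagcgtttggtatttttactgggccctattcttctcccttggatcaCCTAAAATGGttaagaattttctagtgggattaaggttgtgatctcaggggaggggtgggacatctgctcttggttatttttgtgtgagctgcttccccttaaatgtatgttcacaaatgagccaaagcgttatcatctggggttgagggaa
Fhl2, chr1:43196712-43197011, minus strand: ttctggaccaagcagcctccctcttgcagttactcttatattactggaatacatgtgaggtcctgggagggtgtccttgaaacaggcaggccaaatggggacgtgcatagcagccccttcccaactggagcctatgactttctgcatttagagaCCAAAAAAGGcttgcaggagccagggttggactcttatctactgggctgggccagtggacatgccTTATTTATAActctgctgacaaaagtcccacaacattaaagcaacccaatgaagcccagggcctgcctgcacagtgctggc

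To examine how these genes differed between TG and NTG hearts, edgeR's quasi-likelihood test was fitted over all 14774 genes, and a gene was called when its adjusted p was below 0.05 and its log2 fold change exceeded 0.5 in either direction. By this test 0 of the 10 genes were called, where 0% of all genes were. Fhl1, Xirp2, Ankrd1 and Des had lower means in TG hearts, by log2 fold changes of -1.13, -0.83, -0.52 and -0.52, while Fhl2, Xirp1 and Csrp3 had higher means, by 0.48, 0.28 and 0.27. Vcl, Acta1 and Flnc lay between, at -0.16, -0.13 and -0.046. The median over the 10 genes was -0.15, against -0.0081 over all genes tested, and 7 of 10 were below 0, against 51.3% of all genes. The median was -0.21 without NTG 1. It was -0.016 without TG 3, where 5 of 10 genes were below 0.

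Without adjustment, 3 genes had p below 0.05 with edgeR, namely Fhl1, Xirp2 and Des, all lower in TG, where 18.6% of all genes had such a p and 9.76% had it with a lower mean. DESeq2 called 1 gene, Fhl1, lower in TG, where it called 4.19% of all genes, 1.64% higher and 2.55% lower. Its unadjusted p was below 0.05 for 2 genes higher and 4 lower, where 18.3% of all genes had such a p, 8.97% higher and 9.36% lower. With limma voom 0 genes were called, where 0% of all genes were, and 1 higher and 4 lower genes had an unadjusted p below 0.05, where 18.9% of all genes did, 9.45% higher and 9.4% lower. Leaving out NTG 1, edgeR called Fhl1 alone, lower in TG, where 5.52% of all genes were called, 2.67% higher and 2.85% lower. In that fit 1 higher and 4 lower genes had an unadjusted p below 0.05, where 27% of all genes did, 13.7% higher and 13.3% lower.

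The groups did not overlap for Fhl1, lower in TG, and Csrp3, higher in TG, or 2 of 10 genes, where 23.5% of all genes did not overlap, 11.2% higher and 12.3% lower. Without NTG 1 the groups were apart for Ankrd1, Xirp2, Fhl1, Des and Vcl, lower in TG, where 23.6% of all genes were, and for Fhl2 and Csrp3, higher in TG, where 23.4% were. The plot of CPM by library shows the values behind these counts.

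**Figure D1:**
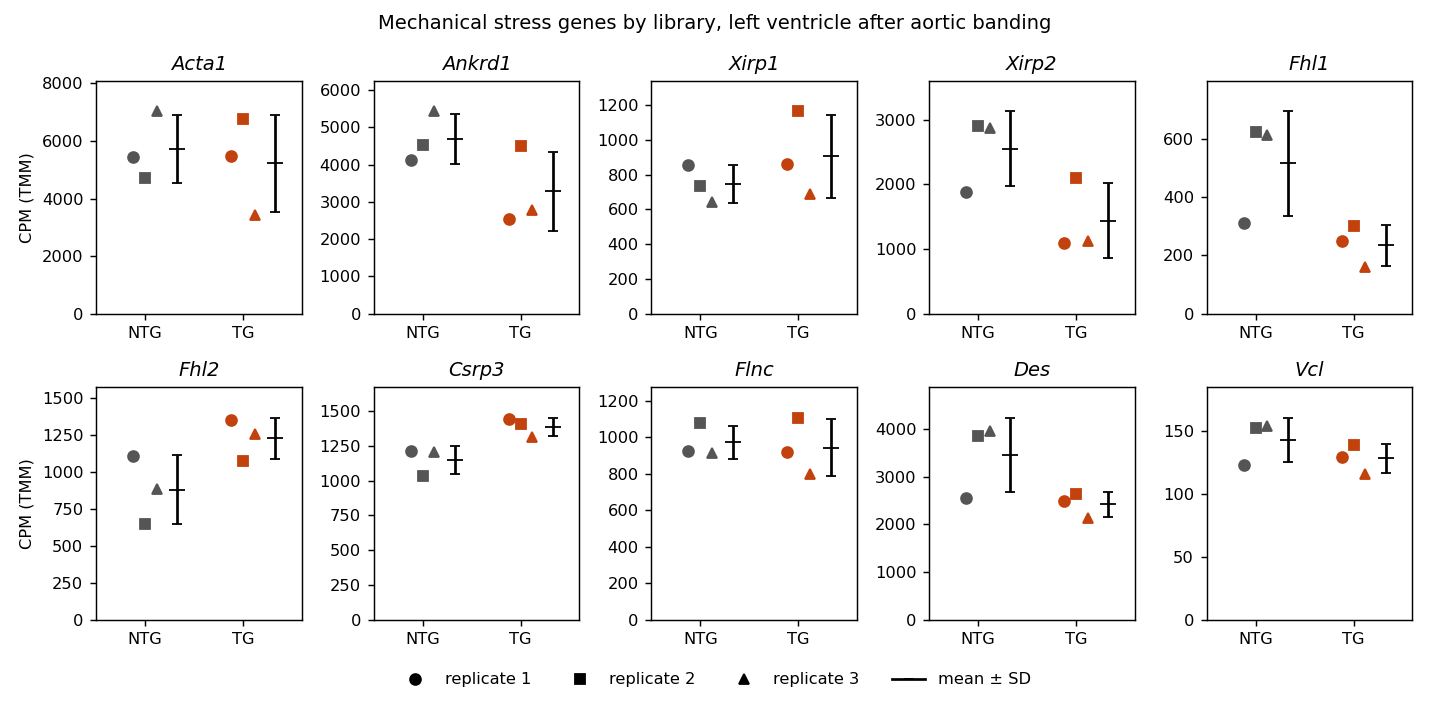
CPM (TMM-scaled, linear axis from 0) of each of the 10 genes in the 3 NTG and 3 TG libraries. Points are libraries, with the symbol giving the replicate number, and the bar beside them is the mean ± SD. The 3 TG libraries lie below the 3 NTG libraries for Fhl1 and above them for Csrp3, and the square of TG 2 is the highest TG point for 8 of the 10 genes.

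The LIM-only proteins Fhl1 and Fhl2 and the LIM protein Csrp3 are adaptors that bind titin, actin or Z-disc proteins. Fhl1 takes part in a stretch-sensing complex on titin. Fhl1 (ENSMUSG00000023092) is at chrX:56731787-56793346 on the plus strand. It measured 310, 625 and 613 CPM in NTG 1, NTG 2 and NTG 3, and 248, 300 and 159 CPM in TG 1, TG 2 and TG 3. Every TG heart was below every NTG heart, but NTG 1 lay close to TG 2 and well under the other NTG hearts. The mean was 516 ± 179 CPM (SD, n = 3) in NTG and 235 ± 71.3 CPM in TG, or 2.19-fold lower in TG by the fit (log2 fold change -1.13, standard error 0.33, 95% interval -1.91 to -0.35, adjusted p = 0.203, edgeR). The adjusted p was 0.0102 with DESeq2 and 0.0311 with edgeR without NTG 1, where the log2 fold change was -1.40, and it ran from 0.0102 to 0.481 over the alternatives.

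Fhl2, which anchors metabolic enzymes to titin and acts as a transcriptional cofactor, had the opposite order. Fhl2 (ENSMUSG00000008136) is at chr1:43123074-43196984 on the minus strand. It measured 1107, 646 and 884 CPM in NTG 1, NTG 2 and NTG 3, and 1347, 1071 and 1254 CPM in the 3 TG libraries in order. NTG 1 lay just above TG 2, and the other NTG hearts lay below all TG hearts. The log2 fold change was 0.48 (standard error 0.21, 95% interval -0.0017 to 0.96, adjusted p = 0.27, edgeR), and 0.68 without NTG 1 (adjusted p = 0.0698).

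Csrp3, the muscle LIM protein of the Z-disc, varied least between hearts of 1 group. It measured 1211, 1032 and 1203 CPM in the NTG libraries and 1444, 1407 and 1315 CPM in the TG libraries, in order of replicate. Each TG heart was above each NTG heart, and the SD was 8.81% of the mean in NTG and 4.78% in TG. The log2 fold change was small, at 0.27 (standard error 0.14, adjusted p = 0.314, edgeR), and 0.31 without NTG 1. Csrp3 (ENSMUSG00000030470) is at chr7:48830398-48848033 on the minus strand.

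Ankrd1, or CARP, is an ankyrin repeat protein that binds titin at the I-band, moves to the nucleus and is one of the strongest load-induced transcripts of the ventricle. Ankrd1 (ENSMUSG00000024803) is at chr19:36111965-36119844 on the minus strand. It measured 4130, 4517 and 5430 CPM in NTG 1, NTG 2 and NTG 3, and 2547, 4501 and 2792 CPM in TG 1, TG 2 and TG 3. TG 1 and TG 3 lay below all NTG hearts, while TG 2 lay within the NTG range. The log2 fold change was -0.52 (standard error 0.25, 95% interval -1.09 to 0.053, adjusted p = 0.3, edgeR), -0.60 without NTG 1 and between -0.81 and -0.37 whichever library was left out.

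The Xin proteins Xirp1 and Xirp2 bind and bundle actin at the intercalated disc and the costamere. Xirp2 (ENSMUSG00000027022, chr2:67446002-67526614, plus strand) measured 1886, 2902 and 2864 CPM in the NTG libraries and 1096, 2102 and 1120 CPM in the TG libraries, in order of replicate. NTG 1 lay between TG 2 and the other TG hearts, and without it the groups did not overlap. The mean was 2550 ± 576 CPM (SD, n = 3) in NTG and 1439 ± 574 CPM in TG (log2 fold change -0.83, standard error 0.30, 95% interval -1.52 to -0.13, adjusted p = 0.221, edgeR). Without NTG 1 the log2 fold change was -1.01. The adjusted p was 0.0569 with DESeq2 and 0.0826 without NTG 1, and did not pass 0.05 under any alternative.

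Xirp1 (ENSMUSG00000079243, chr9:120013755-120023598, minus strand) measured 858, 735 and 643 CPM in NTG and 863, 1164 and 691 CPM in TG, in order of replicate. The groups overlapped, and TG 2 alone stood above the NTG hearts by more than a few CPM. The log2 fold change was 0.28 (standard error 0.21, 95% interval -0.20 to 0.76, adjusted p = 0.481, edgeR), 0.39 without NTG 1 and 0.06 without TG 2. Xirp1 overlaps Cx3cr1 on the same strand, whose counts came to 0.974% of those of Xirp1.

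Desmin, filamin C and vinculin form the filaments and links of the costamere. Des (ENSMUSG00000026208, chr1:75360329-75368579, plus strand), the intermediate filament that rings the Z-disc, measured 2558, 3858 and 3953 CPM in NTG and 2496, 2630 and 2130 CPM in TG, in order of replicate. NTG 1 fell inside the TG range, and NTG 2 and NTG 3 lay well above it. The log2 fold change was -0.52 (standard error 0.21, 95% interval -0.99 to -0.039, adjusted p = 0.241, edgeR) and -0.69 without NTG 1 (adjusted p = 0.0541). The mean was 3457 ± 779 CPM (SD, n = 3) in NTG and 2419 ± 259 CPM in TG.

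Flnc (ENSMUSG00000068699, chr6:29433256-29461883, plus strand), which crosslinks actin at the Z-disc, measured 924, 1077 and 915 CPM in NTG and 920, 1108 and 797 CPM in TG, in order of replicate. The groups overlapped almost fully, with a log2 fold change of -0.046 and a 95% interval from -0.42 to 0.33 (edgeR), and -0.084 without NTG 1. Vcl (ENSMUSG00000021823, chr14:20929398-21033676, plus strand), which links integrin adhesions to actin, measured 123, 152 and 154 CPM in NTG and 129, 139 and 116 CPM in TG. NTG 1 again lay with the TG hearts, and the log2 fold change was -0.16 (95% interval -0.44 to 0.12, adjusted p = 0.501, edgeR) and -0.26 without NTG 1. Vcl overlaps Ap3m1 on the other strand, whose counts came to 26% of those of Vcl, so reads of this pair are less certain without a stated strand setting.

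Acta1, skeletal alpha-actin, is the classical fetal isoform that the overloaded ventricle re-expresses beside cardiac alpha-actin, Actc1. Acta1 (ENSMUSG00000031972) is at chr8:123891769-123894751 on the minus strand. It measured 5460, 4716 and 7031 CPM in NTG 1, NTG 2 and NTG 3, and 5489, 6750 and 3435 CPM in TG 1, TG 2 and TG 3. The highest and lowest TG hearts differed more from each other than the group means did, and the log2 fold change of -0.13 (standard error 0.27, 95% interval -0.77 to 0.50, adjusted p = 0.813, edgeR) changed sign when NTG 3 or TG 3 was left out, at 0.037 and 0.092. It was -0.17 without NTG 1. Of the stretches of 50 bases in the Acta1 transcript, 2.22% also occur in transcripts of other genes, and 0% for the other 9 genes.

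**Figure D2:**
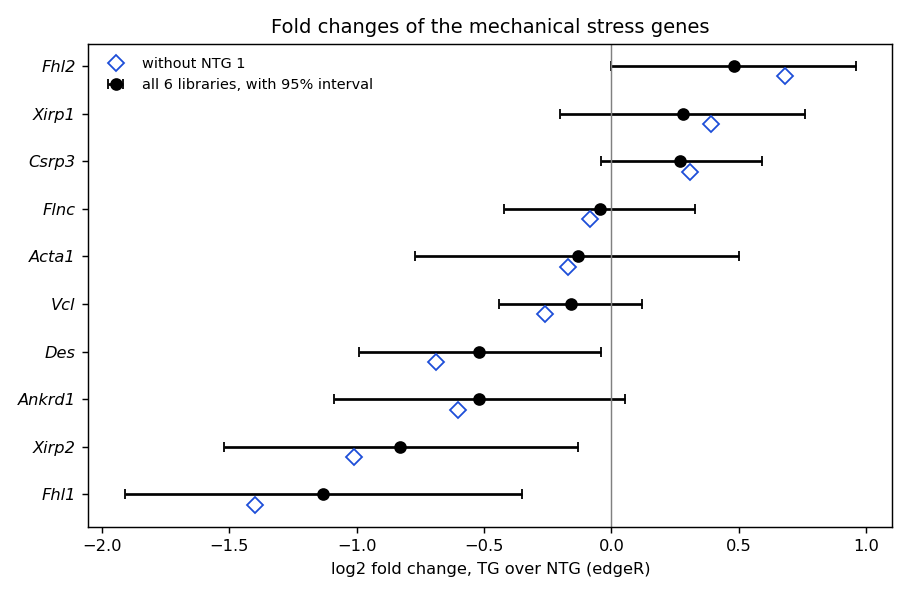
Log2 fold change of TG over NTG for the 10 genes, sorted, from edgeR. Black points are fits on all 6 libraries with the 95% interval, and open diamonds are fits without NTG 1, which lie further from 0 for all 10 genes. The intervals of Fhl1, Xirp2 and Des lie below 0, and those of the other 7 genes cross it.

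The hearts of a group also differed from each other. Among the TG hearts, TG 2 had the highest level for 8 of the 10 genes, all but Fhl2 and Csrp3, and TG 3 had the lowest for 7. Among the NTG hearts, NTG 1 had the lowest level for 5 genes, Ankrd1, Xirp2, Fhl1, Des and Vcl. Over the 6 hearts the coefficient of variation was 52.2% for Fhl1 and 39.9% for Xirp2, and 11.4% for Vcl and 12% for Csrp3. By the root mean square difference of centred log2 CPM over the 6 libraries, Flnc and Vcl were nearest to each other (0.132), as were Ankrd1 and Xirp2 (0.221) and Fhl2 and Csrp3 (0.221). The heat map of centred levels shows these groupings, which are a description of 6 libraries that also share their depth and scaling.

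**Figure D3:**
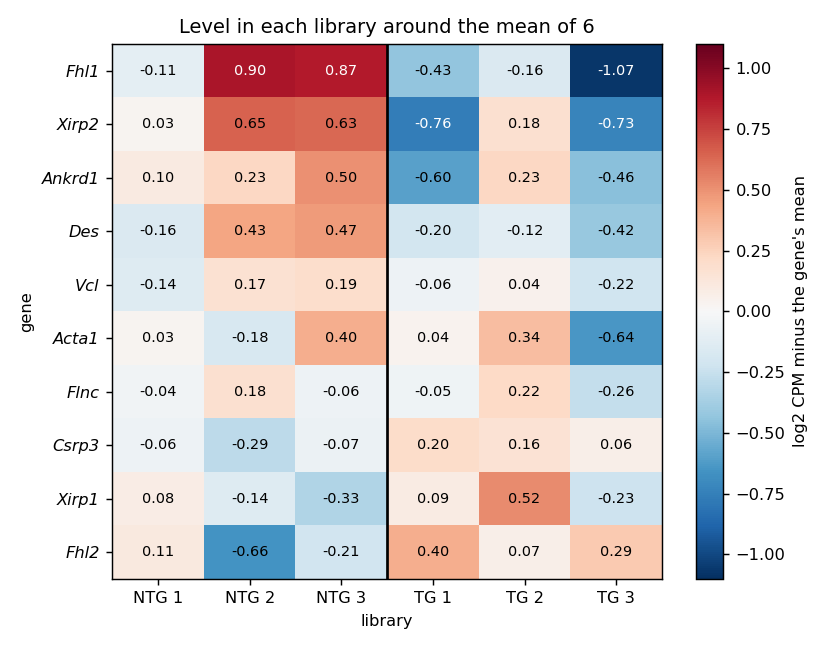
Log2 CPM of each gene in each library minus the gene's mean over the 6 libraries (color scale, in log2 units, with the value printed). The black line separates NTG from TG, and genes are sorted by fold change. Fhl1 and Xirp2 stand at 0.63 to 0.90 in NTG 2 and NTG 3 and near 0 in NTG 1, while Fhl2 runs from -0.66 in NTG 2 to 0.40 in TG 1.

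Because the means of some related genes lay on opposite sides of 0, their proportion was computed within each library, where the scaling between libraries plays no part. The share of Acta1 in the sum of Acta1 and Actc1, per kb, was named in the design, and the other 5 shares were added after the counts of the 10 genes had been seen. Acta1 made up 40%, 47.7% and 51.5% in the NTG libraries and 37.3%, 46.3% and 29.4% in the TG libraries, in order of replicate. The means were 46.4 ± 5.89% (SD, n = 3) in NTG and 37.7 ± 8.44% in TG, a difference of -8.75 percentage points between groups that overlapped (exact permutation test, two-sided, p = 0.2, adjusted over 6 shares p = 0.3). The difference was -12 points without NTG 1, -13.1 without TG 2 and -4.62 without TG 3. With 3 libraries in each group this test cannot go below 0.1.

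Xirp2 made up 51.7%, 65.8% and 68.5% of the Xin pair in NTG and 38.2%, 46.8% and 44.1% in TG. The groups did not overlap, NTG 1 included, and the means were 62 ± 9% and 43.1 ± 4.39% (SD, n = 3). Since this pair was chosen for the signs of its fold changes, its values are given as a description, as are the other added shares. Their permutation p-values entered the adjustment of the Acta1 share and are not read as support. Fhl1 made up 12.5%, 33.1% and 26.2% of Fhl1 plus Fhl2 in NTG and 8.59%, 12.5% and 6.07% in TG. Here NTG 1 lay with TG 2, and NTG 2 and NTG 3 lay well above all other hearts. The share of the fetal myosin Myh7 in Myh7 plus Myh6, given for comparison, was 5.6%, 26.4% and 17.6% in NTG and 3.42%, 13.3% and 2.33% in TG, and NTG 2, NTG 3 and TG 2 were again the high hearts. The shares of Flnc with Flna and of Des with Vim differed little, at 74.5 ± 2.33% and 73.1 ± 1.18% for Flnc and 84.1 ± 1.44% and 82.7 ± 1.12% for Des (SD, n = 3 in NTG and TG).

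**Figure D4:**
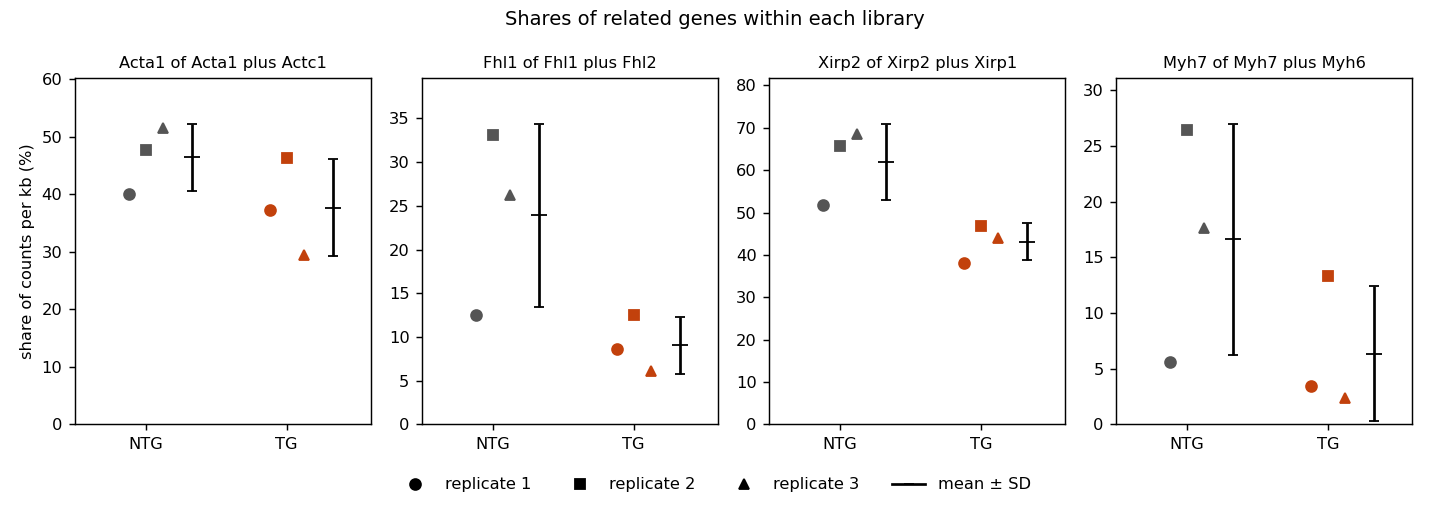
Share (percent of counts per kb, axis from 0) of Acta1, Fhl1, Xirp2 and Myh7 in the sum with the related gene named above each panel, by library. Points are libraries, with the symbol giving the replicate number, and the bar is the mean ± SD. The TG points of Xirp2, 38.2% to 46.8%, lie below the NTG points, 51.7% to 68.5%, while in the other panels the groups overlap.

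The remaining relatives of the 10 genes gave 14 genes tested, with 9 higher and 5 lower in TG and a median log2 fold change of 0.047. With edgeR 0 of them were called. Csrp2, a LIM protein of smooth muscle and fibroblasts, measured 35.4, 53.2 and 40.5 CPM in NTG and 23.9, 29.2 and 23.1 CPM in TG, and DESeq2 called it lower (log2 fold change -0.76, adjusted p = 0.196 with edgeR and 0.00907 with DESeq2), where it called 2.55% of all genes lower. It thus lay on the other side of 0 from its cardiac relative Csrp3. Acta2, smooth muscle actin, was between 83.5 and 88.6 CPM in NTG and between 114 and 120 CPM in TG (log2 fold change 0.42, adjusted p = 0.196 with edgeR and 0.00416 with DESeq2), and its fold change was under the size needed for a call. Actc1 had a log2 fold change of 0.34 (adjusted p = 0.405, edgeR). Of the ankyrin repeat relatives, Ankrd2 was at -0.57 and Ankrd23 at 0.047, and both changed sign, Ankrd2 to 0.36 without NTG 2 and Ankrd23 to -0.033 with scaling by library size alone.

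The 8 load markers listed beside the 10 genes, among them Nppa, Nppb, Myh7, Rcan1, Ccn2, Gdf15 and Timp1, all had lower means in TG, with a median log2 fold change of -1.28, which ran from -1.92 to -1.0 when 1 library was left out and was -1.51 without NTG 1. With edgeR 0 were called, and 4 of 8, all lower, had an unadjusted p below 0.05, where 9.76% of all genes were lower at that level. DESeq2 called 1, Timp1, where it called 2.55% of all genes lower. Timp1, an inhibitor of matrix proteases, measured 26.7, 190 and 66.2 CPM in NTG and 11.3, 21.7 and 10.9 CPM in TG (log2 fold change -2.69, adjusted p = 0.196 with edgeR and 0.0344 with DESeq2). NTG 2 was the highest, and without it the log2 fold change was -1.67 (adjusted p = 0.455, edgeR). Nppb, the B-type natriuretic peptide, had a log2 fold change of -0.50. The summed load markers were 4638, 8419 and 7732 CPM in NTG and 2856, 5964 and 2345 CPM in TG, in order of replicate, so that TG 2 lay above NTG 1. Ankrd1 and Xirp2 had the same 4 hearts on top, NTG 2, NTG 3, TG 2 and NTG 1. Genes of the mitochondrial genome took 13.4%, 14.3% and 16% of the counts in NTG 2, NTG 3 and TG 2, and 19.2%, 20.3% and 21.5% in NTG 1, TG 3 and TG 1. The part of this share in the result was not tested.

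Of 24 costamere and adhesion linkers, 11 had higher and 13 lower means in TG, with a median of -0.0039. Of these, 5 lower and 1 higher had an unadjusted p below 0.05, where 9.76% and 8.83% of all genes were. Sorbs3, or vinexin, which binds vinculin, Parva, an adaptor of the integrin-linked kinase, and Actn1, the non-muscle actinin, came first by p, at log2 fold changes of -0.53, -0.44 and -0.81 (adjusted p = 0.196 for each, edgeR). DESeq2 called Sorbs3 and Actn1 lower, where it called 2.55% of all genes lower, and edgeR without NTG 1 called all 3, where it called 2.85% lower. Vcl itself, the partner of vinexin, lay at -0.16.

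Of 17 Z-disc and titin stretch sensors, 12 had higher means in TG, with a median of 0.21. Tcap, the titin cap, was at 0.66 and Trim55, a titin-binding ubiquitin ligase, at 0.24. With edgeR 3 genes of this list, all higher in TG, had an unadjusted p below 0.05, where 8.83% of all genes were higher and 18.6% were in either direction at that level. By edgeR or DESeq2 0 were called, where these called 0% and 4.19% of all genes. The 10 filament chaperones had a median of 0.10, with the ubiquitin ligase Stub1 at 0.36, the small heat shock protein Hspb3 at 0.57 and Synpo2, a Z-disc adaptor of filamin turnover, at -0.16. Without NTG 1, edgeR called Hspb3 higher (log2 fold change 0.85, adjusted p = 0.0493), where it called 2.67% of all genes higher. The 10 intermediate filament partners tested had a median of -0.051, with nestin (Nes) at 0.77, Krt18 at -1.50 and vimentin (Vim) at -0.36 (adjusted p = 0.215, 0.231 and 0.295, edgeR). Each of these 3 overlapped between the groups, and Krt18 ran from -2.16 without TG 2 to -1.09 without NTG 3.

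A list of mechanosensitive transcription regulators was also read, which includes the kinases Lats1 and Lats2 and the secreted protein Ccn1. Of 17, 8 had higher and 9 lower means in TG, and the 3 at an unadjusted p under 0.05 were all higher, where 8.83% of all genes were higher and 18.6% in either direction. They were Srf at 0.31, its cardiac cofactor Myocd at 0.54 and Mef2a at 0.30. Without NTG 1, edgeR called Myocd higher (log2 fold change 0.78, adjusted p = 0.0466), where it called 2.67% of all genes higher. Srf measured 131, 107 and 122 CPM in NTG and 165, 144 and 136 CPM in TG (adjusted p = 0.23, edgeR), without overlap and higher in TG, as were 11.2% of all genes. Fhl1 and Fhl2, whose promoters printed above each hold a CArG box, lay at -1.13 and 0.48. Acta1 and Vcl, which also hold a CArG box, lay at -0.13 and -0.16. The other Fhl1 promoter searched held no CArG box, and the other Fhl2 promoter held a CArG box. Across these 7 lists edgeR on all libraries called 0 genes, where it called 0% of all genes.

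**Figure D5:**
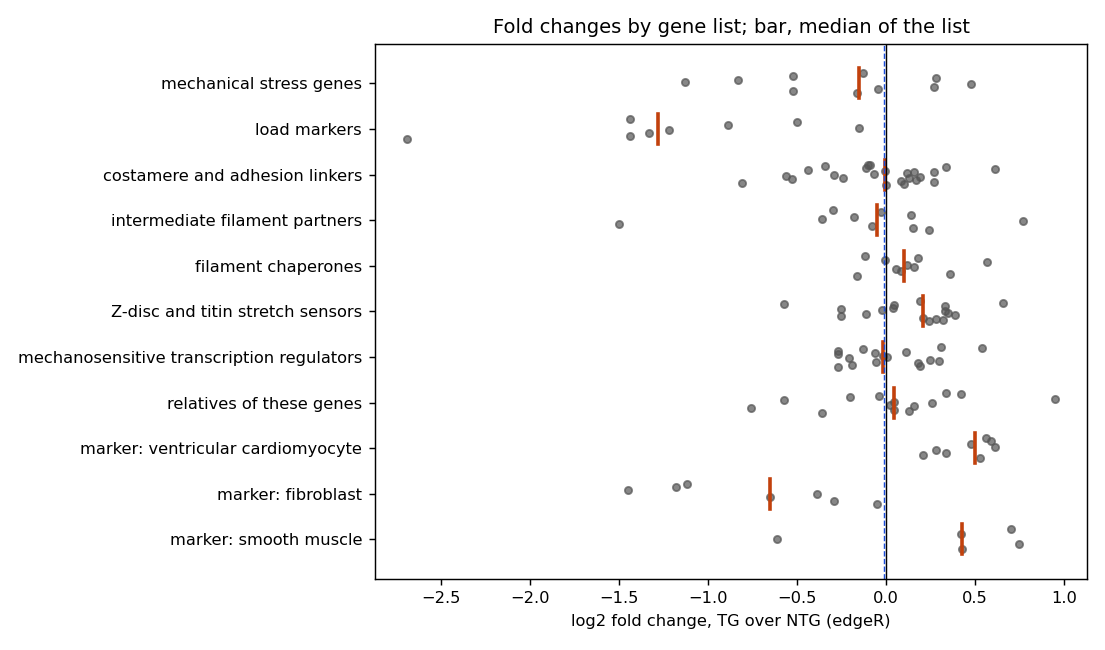
Log2 fold changes of TG over NTG (edgeR) for the genes of each list that were tested. Each point is a gene, the orange bar is the median of the list and the dashed blue line is the median of all genes tested. The 10 mechanical stress genes spread to both sides of 0, the 8 load markers all lie below it and the 8 ventricular cardiomyocyte markers all lie above it.

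Markers of the cell types in the tissue were read beside these comparisons. By edgeR 0 of them were called. DESeq2, which called 4.19% of all genes, called 3 of 7 fibroblast and 4 of 5 erythroid markers lower and 2 of 5 smooth muscle markers higher. Without NTG 1, edgeR, which then called 5.52% of all genes, called all 5 erythroid markers lower. It also called the ventricular marker Pln higher, and the fibroblast marker Col3a1, the endothelial marker Vwf and the macrophage marker Csf1r lower. The summed levels of the fibroblast, erythroid and smooth muscle markers did not overlap between the groups, as 23.5% of single genes did not. Those of the other lists did. All 8 ventricular cardiomyocyte markers had higher means in TG, with a median log2 fold change of 0.50. The 7 fibroblast markers were all lower, with a median of -0.65 and sums of 3766 to 7286 CPM in NTG against 2139 to 3344 CPM in TG. The 5 smooth muscle markers summed to 202 to 259 CPM in NTG and 314 to 361 CPM in TG, 6 macrophage markers to 863 to 1547 and 624 to 915 CPM, 6 endothelial markers to 1560 to 1835 and 1628 to 1784 CPM, and 5 erythroid markers to 1310 to 2245 and 762 to 908 CPM. In bulk tissue, fewer cells of a type and less RNA per cell cannot be told apart, and the part of these shifts in the results was not tested. Set against the summed ventricular markers of the same library, an alternative chosen after seeing the data, the median log2 difference of the 10 genes was -0.65. On that scale Fhl1 was at -1.60, Xirp2 at -1.36, Ankrd1 at -1.05 and Des at -0.98, while Fhl2 was at 0.015, and each of the 10 genes overlapped between the groups.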

How the data were processed

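Per the labels and the paper's methods, the authors selected poly-A RNA, sequenced it on a Novaseq, cleaned and mapped the reads (HISAT2 is in the submitters' processing notes) and ran featureCounts for reads on each gene. The deposited values are these raw counts, 1 column per heart, not normalized and not pooled. Strand setting and handling of multi-mapped reads are not given in the sources used here. The processing notes name GRCh38, a human build, but 98.3% of the mouse gene IDs found in GENCODE release 21 (GRCm38) have identical positions there, including 9 of the 10 genes, Ankrd1 being the exception. Positions are given as deposited.

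The count analysis used edgeR 4.0.16 in R 4.3.3 (TMM, filterByExpr by group, robust quasi-likelihood test, Benjamini-Hochberg over 14774 genes), and with DESeq2 1.42.0 and limma 3.58.1 (voom) as alternatives. The thresholds were an adjusted p of 0.05 and a log2 fold change of 0.5. Standard errors were derived from edgeR's log2 fold change and F statistic, and 95% intervals from these standard errors. log2 CPM has a prior count of 2. The tests were tested on simulated data. Levels per kb use the deposited gene length. Total counts were 14863568 to 17581220 per library, and counting error was not separated from the spread between hearts.

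The members and lists were chosen with earlier results of these data known, and support nothing on their own. Named genes are the 10 members, their relatives, the 3 lowest p-values of each list and the 5 genes nearest in profile, named in the closing section. A few marker genes and load markers outside this rule were named after their values were seen. Some genes that the rule gives are not reported here. Group comparisons used no covariate, and no sequencing batch is given. Replicate numbers did not pair the hearts. The 16 alternative settings were all run, and 0 sample columns were left unmatched.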

Additional observations from a re-analysis of the deposited data

How the results depend on the processing

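With edgeR, 0 genes were called over all genes under RLE or library size scaling, without genes of the mitochondrial genome, with at least 10 counts in every library, with the gene length offset and with limma voom. There were 232 called with no low-count filter, 583 with DESeq2, 231 with the replicate block and 244 with the replicate block and gene length offset. Leaving out 1 library gave 0 to 836, with 836 without NTG 1, 7 without TG 2, 1 without TG 3 and 0 without the others. Of the 10 mechanical stress genes, 1 was called with DESeq2 and 0 to 1 when 1 library was left out, Fhl1 with DESeq2 and without NTG 1, and 0 under every other alternative, the replicate block among them. Same-numbered hearts did not deviate together (correlations 0.0807, 0.173 and -0.252), so the numbers were not taken as pairs. The median over the 10 genes ran from -0.29 without TG 2 to -0.016 without TG 3 and was -0.16 with the replicate block, -0.23 with library size alone, where the median of all genes was -0.093, and -0.65 relative to cardiomyocyte markers. The Acta1 share differed by -13.1 to -4.62 percentage points when 1 library was left out, and by -8.75 in the replicate block. The cause was not tested.

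The log2 fold change changed sign for 7 of the genes named, none of them called. Acta1 was at 0.037 without NTG 3 and ran from -0.36 (without TG 2) to 0.092 (without TG 3). Flnc was at 0.019 with the gene length offset, 0.013 with the offset and block, 0.034 without NTG 2, and ran from -0.18 (without TG 2) to 0.06 (without TG 3). Actb was at 0.04 without NTG 2 and 0.09 without TG 3, and Ankrd2 at -0.89 without NTG 1 and 0.36 without NTG 2. Ankrd23 was at -0.033 by library size and -0.086 without TG 2, against 0.17 without TG 3. Fhl4 was at -0.077 by library size, -0.06 with voom, -0.0094 with the block and -0.21 without NTG 1. Flna was at -0.039 by library size, -0.06 without NTG 1 and -0.029 without TG 2, against 0.13 without TG 3.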

Other observations

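Fhl2 kept nearly the same proportion to the summed ventricular cardiomyocyte markers in all 6 hearts. It came to 3.09%, 3.06% and 3.06% of their CPM in NTG 1, NTG 2 and NTG 3 and to 3.16%, 3.11% and 3.05% in TG 1, TG 2 and TG 3, while Fhl2 itself ran from 646 to 1347 CPM. The coefficient of variation of this proportion was 1.33%, the lowest of 14766 genes (the 8 markers left out), against a median of 32.9%. Among the other 9 genes it ran from 16.8% for Csrp3 to 78.3% for Fhl1. The proportion was computed after the values had been seen, and it is a description of 6 libraries.

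Of 9071 other genes with a mean of at least 10 CPM, Smox, Cd34, Lamc1, Tcaf1 and Tmod2 lay nearest to the mean profile of the 10 genes over the 6 libraries, at a root mean square difference of 0.0247, 0.0388, 0.0449, 0.0454 and 0.0457 on the log2 scale. Smox encodes spermine oxidase, Lamc1 a laminin chain and Tmod2 a cap of actin filament ends. Their log2 fold changes lay between -0.28 and -0.18, and none was called. The mean profile was highest in NTG 3, at 0.24, and lowest in TG 3, at -0.37, with TG 2 at 0.15.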
